A study of Mus musculus domesticus and Mus musculus molossinus with 8 samples.

Results

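The thymus of a C57BL/6 (B6) mouse that had received MegaFasL was compared with the thymus of an untreated B6 mouse. The comparison used 2 of the 8 libraries of the study, 1 library from 1 mouse on each side, and 7040 of the 23284 genes in the deposited tables, those whose mean over both thymi reached 5 FPKM. FPKM is the number of sequenced fragments per kilobase of transcript, scaled to the mapped fragments of the library. The study took liver and thymus from 4 mice, a B6 and an MSM/Ms (MSM) mouse left untreated and another pair given 1.5 µg of MegaFasL into the peritoneal cavity, and sequenced polyadenylated RNA. The mice were 8 weeks old according to the labels. C57BL/6 is the common laboratory strain on which the mouse reference genome is built, and MSM/Ms is an inbred strain derived from Japanese wild mice. Not given in the sources used here are the time between injection and harvest, the sex of the mice, the time of day and the vehicle, and the untreated mice are not described as having received an injection.

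MegaFasL is a recombinant, multimeric form of Fas ligand, the signal that engages the death receptor Fas. Ligand-bound Fas recruits the adaptor FADD and caspase-8, which activate the executioner caspases, directly or through the BCL-2 protein BID and mitochondria. Most cells of a thymus are immature T cells (thymocytes) that carry both CD4 and CD8, which are known to express Fas and to be sensitive to glucocorticoid hormones.

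With 1 library per group no test of the treatment was possible, and every difference below is between 2 mice. Treatment also coincides with the deposited table, since untreated and injected libraries were normalized apart by the authors. Levels were set on 1 scale with the median ratio of 11220 genes (0.03 on the log2 scale, injected over untreated), and a difference is that of log2(FPKM + 1), injected minus untreated. A gene is called at least 2-fold higher or lower where this difference is at least 1 either way. Read-back from the steps of low FPKM values gave the depth of each library, by which 5 FPKM on a transcript of 2 kb stood for about 30.8 fragments in the untreated and 30.1 in the injected library. Fold changes are given with an exact 95% interval for the ratio of estimated fragments, which covers counting error only and not the variation between mice. In whole tissue, fewer cells of a type and less RNA per cell cannot be told apart.

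Both libraries carried the genes that define a thymus. Rag1, of the recombinase that assembles T cell receptor genes, stood at 587 FPKM in the untreated and 489 FPKM in the injected library, against 9.88 and 0.60 FPKM in the livers of the same 2 mice. Psmb11, the proteasome subunit of cortical thymic epithelium, had 13.2 and 13.7 FPKM. Albumin (Alb), the main protein product of the liver, was at 24.1 and 49.8 FPKM in the thymi, against 62390 and 55240 FPKM in the livers. The label of the tissue therefore matched its markers in both libraries.

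The 2 thymi were close to each other. Of the 7040 genes, 80 (1.14%) were higher by 2-fold or more in the injected thymus and 85 (1.21%) lower by as much, together 2.34%. The middle 50% of differences lay between -0.21 and 0.21. In the liver of the same 2 mice, 727 of these genes (10.3%) were past 2-fold, and in the thymus of the MSM pair 354 (5.03%). The genes were chosen by their level in B6 thymus alone. The livers were sequenced less deeply, with 14.6 and 16.2 fragments for 5 FPKM on 2 kb. Of the 354 in MSM thymus 247 were lower. Its untreated library held more RNA of other tissues, such as hepatocyte genes at 3446 FPKM against 242 FPKM in the injected one. The part of gene choice, depth and other tissue in these shares was not tested. Centring on ribosomal protein genes instead gave 110 higher and 63 lower, because it moved the median of all genes by 0.13, and directions below are relative to the median gene.

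Many of the genes past 2-fold rested on few fragments. Of the 165, 37 were small RNAs, 26 were listed at 0 in 1 of the libraries, and 84 had an estimate of under 100 fragments. Among genes with under 30 estimated fragments 10.1% were past 2-fold, against 1.46% with 30 to 100 and 0.475% with 100 to 300. Among the 3358 genes with at least 100 estimated fragments, 10 (0.298%) were past 2-fold on the higher side and 5 (0.149%) on the lower side. Direction also went with base composition. In 5 bins of transcript GC content the median difference went from -0.14 in the lowest to 0.16 in the highest. In B6 liver it also rose, from -0.15 to 0, while in MSM thymus it went the other way, from 0.17 to -0.04. The part of base composition in the single genes was not tested.

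**Figure D1:**
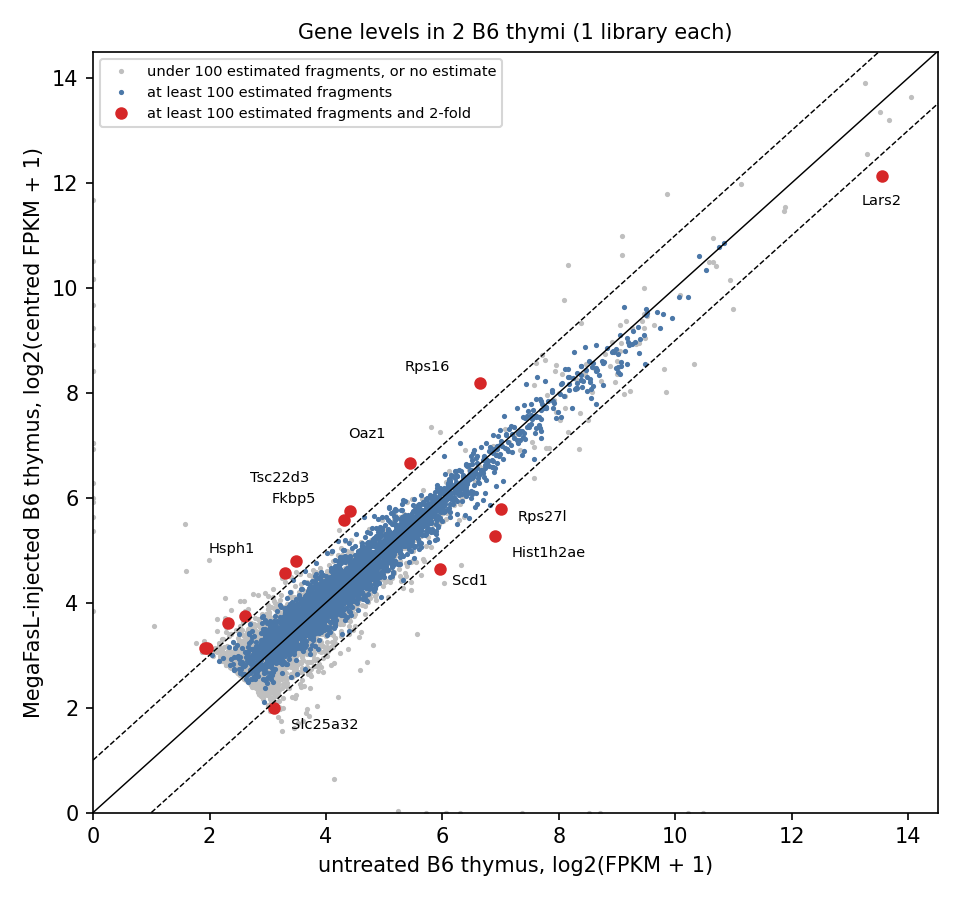
Each point is 1 of the 7040 genes, with its level in the untreated B6 thymus on the x axis and in the injected B6 thymus, centred, on the y axis, both as log2(FPKM + 1). The solid line marks equal levels and the dashed lines 2-fold; the 15 red points are the genes with at least 100 estimated fragments past 2-fold, with Fkbp5, Tsc22d3 and Hsph1 above and Scd1 and Lars2 below.

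**Figure D2:**
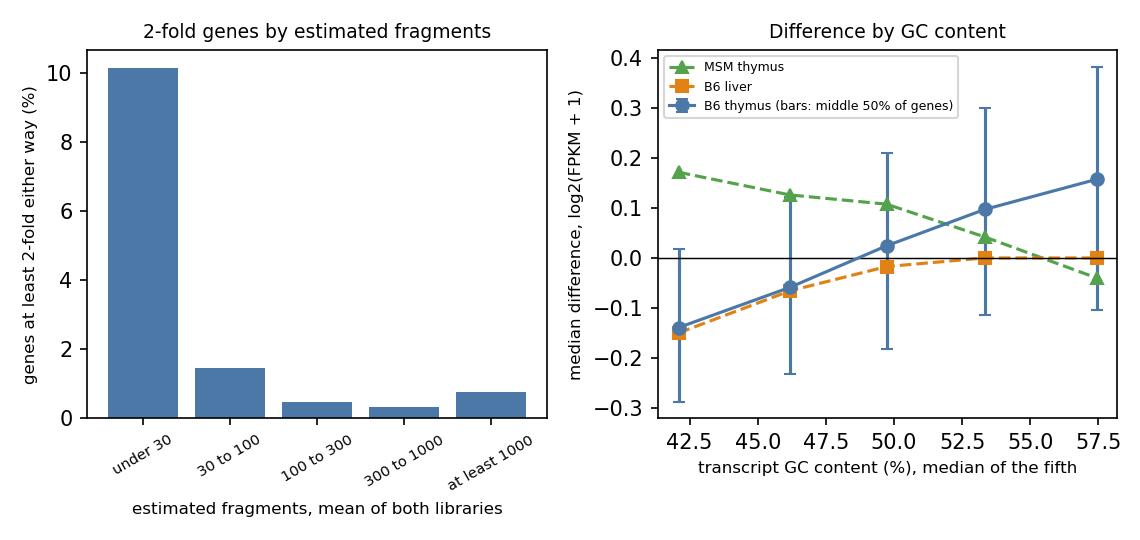
Left, the share of genes (%) at least 2-fold either way in B6 thymus, by estimated fragments, which is 10.1% under 30 fragments and 0.475% at 100 to 300. Right, the median difference of log2(FPKM + 1) in 5 bins of transcript GC content (%), with bars for the middle 50% of genes in B6 thymus; the B6 thymus medians go from -0.14 to 0.16.

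Among the well-counted genes that were higher, 2 are textbook targets of the glucocorticoid receptor. Fkbp5 encodes the co-chaperone FKBP51, which binds that receptor through HSP90. It stood at 18.9 FPKM in the untreated and 47.8 FPKM in the injected thymus, a fold of 2.48 (95% interval 2.11 to 2.92). Tsc22d3 encodes GILZ, the glucocorticoid-induced leucine zipper protein, and stood at 20.2 and 54 FPKM, a fold of 2.63 (2.06 to 3.38). Both were also past 2-fold in MSM thymus and in B6 liver; MSM liver was not analysed here. Fkbp5 had 21.6 FPKM in untreated and 62.4 FPKM in injected MSM thymus (difference 1.41), and 9.95 and 45.4 FPKM in the B6 livers (2.04). For Tsc22d3 the levels were 36.7 and 128 FPKM in MSM thymus (1.69) and 36.9 and 109 FPKM in B6 liver (1.49). The injected library was thus the higher one in each of these 3 pairs, and thymus and liver of a strain come from the same mice. Fkbp5 lies on chromosome 17 (mm10, 28399094 to 28517527, minus strand) and Tsc22d3 on chromosome X (140539528 to 140600659, minus strand).

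The other genes of the glucocorticoid list were closer to the median gene. Of its 20 genes 9 reached 5 FPKM, and 2, those above, were at least 2-fold higher, with none lower (1.14% and 1.21% of all genes). The list was assembled with earlier results of these libraries known, so its direction is not independent evidence. The median difference of the 9 was 0.24, against 0.00 over all genes, and 7 were above 0 (49% of all genes). Txnip, an inhibitor of thioredoxin, had 84.0 and 101 FPKM, a fold of 1.18 (1.07 to 1.30). Il7r, the receptor chain for interleukin-7, had 7.23 and 11.3 FPKM, a fold of 1.54 (1.16 to 2.06). Bcl2l11, which encodes the death-promoting protein BIM, had 8.65 and 10.1 FPKM, and the interval of its fold, 0.81 to 1.60, includes 1. Nfkbia, the inhibitor of NF-kappaB, was nearly level at 44.7 and 46.7 FPKM. Below 5 FPKM, the metallothionein gene Mt2 had 2.46 and 6.71 FPKM, while Pdk4, a kinase that restrains glucose oxidation, had 1.87 and 1.09 FPKM.

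Genes of the heat shock response mostly had differences above 0, though few reached 2-fold. Of 21 listed, 16 reached 5 FPKM, 13 of these were above 0 (49% of all genes were), and their median difference was 0.40, which was 0.43 after subtracting the median of genes of like GC content and length. Among the 16 Hsph1 alone was past 2-fold higher (1.14% of all genes were), and none was 2-fold lower. Hsph1, an HSP110 chaperone and nucleotide exchange factor of HSP70, stood at 10.2 FPKM in the untreated and 27.3 FPKM in the injected thymus, a fold of 2.63 (2.09 to 3.33). It was past 2-fold also in MSM thymus, with 24.5 and 84.8 FPKM, and in B6 liver, with 9.29 and 30.2 FPKM. Hsph1 lies on chromosome 5 (mm10, 149614287 to 149636376, minus strand).

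The abundant cytosolic chaperones differed less, with narrow counting intervals. Hspa8, the constitutive HSP70, had 556 and 810 FPKM, a fold of 1.43 (1.37 to 1.49). Hsp90ab1, the constitutive HSP90, had 196 and 321 FPKM, a fold of 1.60 (1.50 to 1.70), and Hsp90aa1, its inducible partner, had 168 and 222 FPKM, a fold of 1.29 (1.21 to 1.38). The co-chaperones that work with them lay on the same side. Dnaja1, an HSP40, had 27.8 and 42.6 FPKM, Stip1, which links HSP70 to HSP90, had 35.9 and 54.8 FPKM, and Ahsa1, the activator of the HSP90 ATPase, had 35.3 and 55.4 FPKM. Other members were level, among them Dnajb1 at 26.4 and 26.5 FPKM and the mitochondrial co-chaperonin Hspe1 at 65.6 and 67.1 FPKM. The strictly inducible Hspa1b was low in both, at 0.56 and 3.07 FPKM, which stood for about 4.96 and 26.7 fragments. Over the same 16 genes the median difference was 0.65 in MSM thymus and 0.39 in B6 liver.

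Both cold-inducible RNA-binding proteins lay on the opposite side in B6 thymus. Cirbp had 21.2 FPKM in the untreated and 10.4 FPKM in the injected thymus, a fold of 0.48 (0.32 to 0.72), and Rbm3 had 190 and 108 FPKM, a fold of 0.55 (0.48 to 0.63). Neither passed 2-fold on the log2(FPKM + 1) scale. In MSM thymus Rbm3 was the other way, at 78.9 and 173 FPKM, and Cirbp was near level, at 9.75 and 9.44 FPKM. In B6 liver Cirbp was past 2-fold lower, at 11.0 and 3.16 FPKM, and Rbm3 had 36.2 and 38.8 FPKM.

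**Figure D3:**
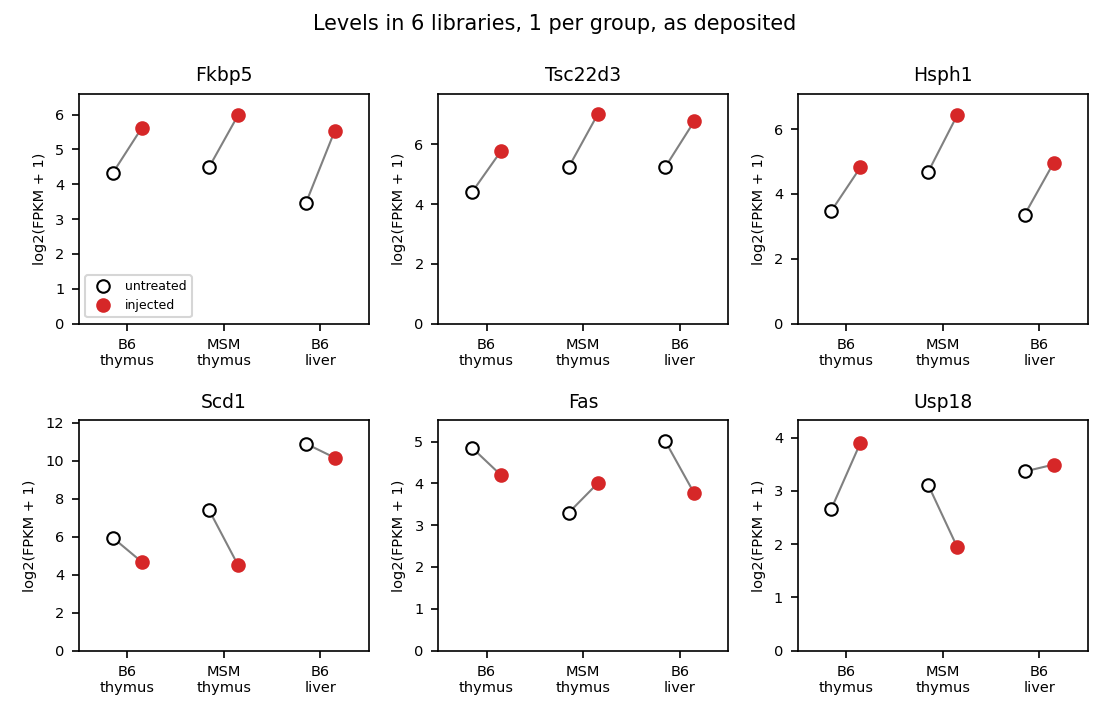
Levels as deposited, in log2(FPKM + 1), of 6 genes in the untreated (open) and injected (filled) library of B6 thymus, MSM thymus and B6 liver, 1 library per point, with lines joining the libraries of a strain and tissue. Fkbp5, Tsc22d3 and Hsph1 are higher in the injected library of each pair, Scd1 is lower in each, and Fas and Usp18 go different ways in the 2 strains of thymus.

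The receptor that MegaFasL binds was lower in the injected B6 thymus. Fas had 27.9 FPKM in the untreated and 17.3 FPKM in the injected library, a fold of 0.61 (0.45 to 0.83), on chromosome 19 (mm10, 34290666 to 34327772, plus strand). In the B6 livers it had 31.2 and 12.6 FPKM, whereas in MSM thymus the injected library was the higher one, with 8.83 and 15 FPKM. Its natural ligand Fasl was near the detection limit, at 0.52 and 0.18 FPKM, or about 1.72 and 0.57 fragments.

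In the whole receptor complex list, Fas and Fasl included, 7 of 11 genes reached 5 FPKM, none of the 7 was past 2-fold either way (2.34% of all genes were), and their median difference was 0.09. The initiator caspase Casp8 had 15.4 and 20.5 FPKM, and its catalytically inactive relative Cflar (FLIP), which limits caspase-8 activation, had 23.2 and 25 FPKM. The adaptor Fadd had 1.74 and 2.11 FPKM. The kinase Ripk1 had 6.15 and 7.04 FPKM, the ubiquitin ligase Traf2 had 11.5 and 12.6 FPKM, and the adaptor of TNF receptor 1, Tradd, had 5.39 and 4.26 FPKM. Intervals of the fold included 1 for each of these 6 genes. Daxx, a histone chaperone first described as a Fas-binding protein, was the highest of the complex by difference, with 6.83 and 12 FPKM and a fold of 1.71 (1.22 to 2.41). Faf1, a Fas-associated factor, had 12.8 and 11.6 FPKM, and the inhibitor Faim had 4.98 and 2.55 FPKM, with an interval of 0.15 to 1.44.

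Over the 4 lists of apoptosis and related death genes together, 35 of 56 genes reached 5 FPKM, and of these 0 were past 2-fold on either side (2.34% of all genes were), with differences from -0.69 to 0.71 and a median of -0.06. At a mean of at least 1 FPKM, 2 of 49 were past 2-fold lower, where 204 of all 11298 genes at that level were. Both rested on few fragments. Bok, a BCL-2 relative, had 3.30 and 0.72 FPKM on about 11.0 and 2.36 fragments. The nuclease gene Endog had 2.10 FPKM, on about 6.20 fragments, and was listed at 0 in the injected library. The 10 genes of the BCL-2 family had a median of -0.12. The highest of them was Bmf, a BH3-only death promoter, with 6.74 and 11.9 FPKM and a fold of 1.74 (1.32 to 2.31), which was past 2-fold in MSM thymus (2.72 and 11.8 FPKM) and in B6 liver (0.96 and 8.15 FPKM). Bid, the substrate of caspase-8 that carries the signal to mitochondria, had 13.1 and 11.9 FPKM. The survival genes Bcl2l1 (BCL-XL), Mcl1 and Bcl2 had 43.5 and 37.0, 68.8 and 68.4, and 7.83 and 10.6 FPKM. Among genes further downstream, Apaf1, the scaffold of the apoptosome, had 8.01 and 10.4 FPKM, and the caspase inhibitor Xiap had 19.0 and 18.2 FPKM. Targets of p53 had a median of -0.10 over 9 genes with none past 2-fold in that list, Mdm2 among them at 20.5 and 19.5 FPKM. These are RNA levels, and caspase activation itself leaves no direct trace in them.

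Thymocyte genes had differences of under 2-fold, as most genes did. Over the lists of thymocyte stages and T cell receptor signalling, 66 of 82 genes reached 5 FPKM, 0 were past 2-fold on the higher and 0 on the lower side (2.34% of all genes were past it), and the median difference was 0.06, with a range of -0.87 to 0.83. At a mean of at least 1 FPKM, 1 of 79 was past 2-fold lower, where 204 of all 11298 genes at that level were. It was Lyl1, a transcription factor of early progenitors, with 2.72 and 0.74 FPKM on about 14.9 and 3.96 fragments. All 18 genes of CD4 and CD8 double-positive cells were compared, with a median of 0.04. Cd4 had 110 and 120 FPKM, Cd8a 218 and 215 FPKM, and Dntt, the polymerase that adds bases at receptor gene joints, 404 and 354 FPKM. The 22 genes of T cell receptor signalling had a median of 0.06, with the receptor chain Cd3e at 79.0 and 92.3 FPKM and the kinase Lck at 236 and 269 FPKM.

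Single genes stood out more than stages did. Lef1, a transcription factor of Wnt signalling and T cell development, had 27.3 FPKM in the untreated and 50.4 FPKM in the injected thymus, a fold of 1.80 (1.56 to 2.09), and its relative Tcf7 had 215 and 303 FPKM, a fold of 1.38 (1.29 to 1.48). Lef1 was near level in MSM thymus (29.4 and 32.3 FPKM), where Tcf7 had 237 and 391 FPKM. Rag1 was on the lower side, with a fold of 0.81 (0.79 to 0.84). Among genes of mature single-positive cells, which leave the cortex for the medulla, the 11 compared had a median of 0.13. The chemokine receptor Ccr7, which guides that move, had 6.87 and 13.0 FPKM, a fold of 1.84 (1.25 to 2.75), while Ms4a4b, a membrane protein of mature T cells, had 18.4 and 9.83 FPKM, a fold of 0.52 (0.42 to 0.64). Cd69, the activation marker shown during positive selection, had 17.0 and 11.3 FPKM, with an interval of 0.41 to 1.01 for the fold. Members of 1 stage thus lay on both sides of the median gene.

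Of 42 cell cycle genes 39 were compared, 0 higher and 0 lower by 2-fold (2.34% of all genes were past it), with a median of 0.05 and a range of -0.27 to 0.73. The proliferation marker Mki67 had 121 and 128 FPKM and the replication clamp Pcna 200.2 and 190 FPKM. At the upper end stood Ube2c, the ubiquitin-conjugating enzyme of the anaphase-promoting complex, with 33.0 and 56.6 FPKM, and its activator Cdc20, with 16.9 and 27.7 FPKM.

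Histone genes that are expressed with DNA replication differed from the rest of the cell cycle. Of 67 listed, 55 were compared, 52 were below 0, 5 were at least 2-fold lower and none was higher, and the median was -0.42, or -0.31 after subtracting the median of genes of like GC content and length. The 2-fold counts of all genes were 1.14% higher and 1.21% lower. Their summed level was 19008 FPKM in the untreated and 15325 FPKM in the injected thymus. Hist1h1c, a linker histone with about 2679 and 1733 fragments, had 575 and 382 FPKM, a fold of 0.65 (0.61 to 0.69), and Hist1h2ac had 29.6 and 16.7 FPKM, a fold of 0.55 (0.44 to 0.69). The largest well-counted difference was that of the H2A gene Hist1h2ae, with 119 and 38.4 FPKM. Replication-dependent histone mRNAs mostly lack a poly(A) tail, so a library from polyadenylated RNA holds only part of them, and near-identical copies share reads. In MSM thymus the same 55 genes had a median of 0.45, with 8 at least 2-fold higher and none lower, against 1.52% and 3.51% of all genes there, the opposite side from B6. In that MSM pair the 18 double-positive thymocyte genes had a median of 0.40 and the 20 mitosis genes one of 0.45. The 19 DNA replication genes had one of 0.15 there, against 0.08 over all genes. In the B6 livers the median of the histone genes was -1.35, the same side as B6 thymus. There 1 was higher and 31 lower, against 4.18% and 6.15% of all genes. Other genes of thymocytes and dividing cells were on that side in liver too. The 18 double-positive thymocyte genes had a liver median of -0.80 and the 20 mitosis genes one of -0.85, with 8 lower in each list. The part of such cells in the histone values was not tested.

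**Figure D4:**
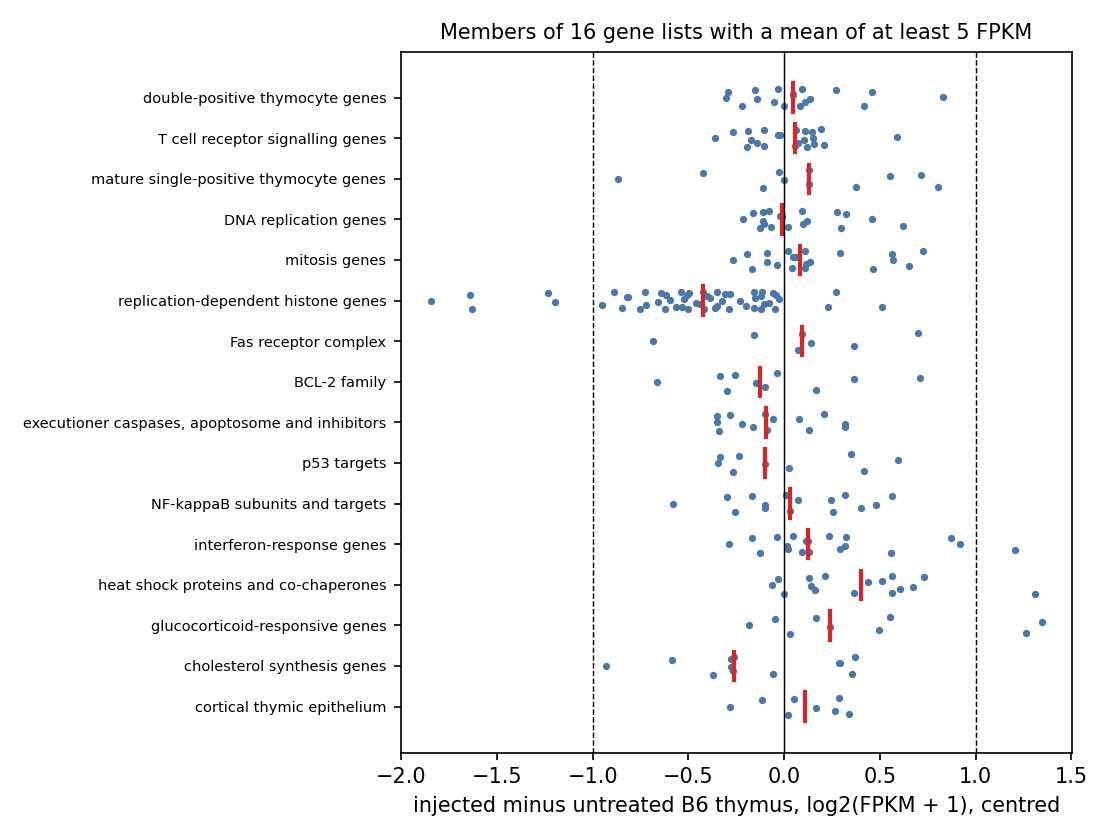
Each point is a gene with a mean of at least 5 FPKM, placed by its difference (injected minus untreated B6 thymus, log2(FPKM + 1), centred), for 16 gene lists; red bars are medians and dashed lines mark 2-fold. Thymocyte and apoptosis genes lie within 2-fold, heat shock genes have a median of 0.40 and histone genes of -0.42.

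Interferon-response genes leaned to the higher side in B6 thymus. Of 33 listed 19 were compared, 15 were above 0 (49% of all genes), 1 was at least 2-fold higher (1.14% of all genes) and none lower, and the median was 0.12. Usp18, the protease that removes ISG15 from proteins and dampens interferon signalling, had 5.36 FPKM in the untreated and 14 FPKM in the injected thymus, a fold of 2.52 (1.62 to 4.03). Isg15 had 8.38 and 17.1 FPKM, a fold of 2.01 (1.07 to 3.92) on about 16 and 31.8 fragments, and the transcription factor subunit Irf9 had 6.50 and 13.0 FPKM, a fold of 1.97 (1.39 to 2.82). The other pairs did not share this lean, with list medians of -0.35 in MSM thymus and -0.34 in B6 liver.

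No other signalling list had a median far from 0. The 15 genes of NF-kappaB signalling had a median of 0.03 and the 14 of the unfolded protein response one of -0.06, with none past 2-fold in either list. Among 10 immediate-early genes 1 was 2-fold lower (1.21% of all genes were), and the median was 0.04. It was Junb, an AP-1 subunit, with 12 and 5.61 FPKM on about 66.4 and 30.2 fragments. Its difference of -1.01 was just past the cut. Within the unfolded protein response the co-chaperone Dnajb9 had 12.4 and 6.42 FPKM, a fold of 0.50 (0.35 to 0.72), while the chaperone Hspa5 (BiP) had 75.9 and 69.4 FPKM. Antigen presentation was level too, with medians of -0.07 over 11 class I genes and 0.07 over 10 class II genes. Ribosomal protein genes, 81 compared, had 2 higher and 1 lower by 2-fold and a median of -0.14. The 76 subunits of the respiratory chain had 1 of each and also a median of -0.14. Of all genes 1.14% were higher and 1.21% lower, and these counts were near those shares. Both lists consist of short transcripts, and their medians were -0.07 and -0.06 against genes of like GC content and length.

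Among the few well-counted low values was that of a lipid gene, taken up after its value was seen. Scd1, the desaturase that makes monounsaturated fatty acids, had 60.9 FPKM in the untreated and 24.6 FPKM in the injected B6 thymus, a fold of 0.39 (0.35 to 0.44), on chromosome 19 (mm10, 44394455 to 44407879, minus strand). It had 166 and 21.4 FPKM in MSM thymus and 1911 and 1139 FPKM in B6 liver, the injected library being the lower one each time. Scd1 is abundant in fat, and fat cell genes were measured beside it. Their summed level was 229 FPKM in the untreated and 212 FPKM in the injected B6 thymus, against 1277 and 154 FPKM in the MSM thymi. Of the 7 fat genes compared, 1 was 2-fold lower (1.21% of all genes were), the adipokine Retn. It had 13.8 and 6.25 FPKM on about 38.0 and 16.8 fragments, and Adipoq, the adipokine adiponectin, had 13.8 and 12.4 FPKM. The part of fat tissue in the Scd1 difference was not tested.

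Cholesterol synthesis had a median of -0.26 over 12 genes, -0.10 after the same subtraction. None of the 12 was past 2-fold (2.34% of all genes were). Hmgcs1, which makes HMG-CoA for the pathway, had 20.1 and 10.3 FPKM, a fold of 0.50 (0.39 to 0.63). Its difference on the log2(FPKM + 1) scale was -0.93, short of 2-fold. Insig1, a sterol-regulated brake on the pathway, had 12.1 and 7.88 FPKM, a fold of 0.64 (0.46 to 0.88). In the livers of the same mice these 12 genes had a median of 1.18, with 8 at least 2-fold higher, against 4.18% of all genes there. Liver and thymus of the 2 mice therefore lay on opposite sides for this list, a difference that was not tested.

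Most clock genes were further apart in liver than in thymus. The circadian clock is a loop in which CLOCK and BMAL1 (Arntl) drive the Per and Cry repressors and the Nr1d receptors. In B6 thymus 6 of 23 clock genes, counted without Tsc22d3, reached 5 FPKM, none past 2-fold, with a median of 0.01. At a mean of at least 1 FPKM there were 17, with a median of 0.19, 2 at least 2-fold higher and none lower, where 240 and 204 of all 11298 genes at that level were. In the livers of the same mice those 17 genes had a median of 1.38, with 9 at least 2-fold higher and 4 lower (4.18% and 6.15% in liver over the 7040 genes, which were chosen at the higher level of 5 FPKM). Arntl had 15.5 and 14.9 FPKM in thymus and 9.22 and 1.15 FPKM in liver. Dbp, an output transcription factor, had 1.18 and 3.42 FPKM in thymus and 1.65 and 33.9 FPKM in liver. Per1 had 2.02 and 3.19 FPKM in thymus and 0.27 and 13.3 FPKM in liver. The 2 past 2-fold in thymus were low in level. Nr1d1 had 0.36 and 4.03 FPKM, on about 3.10 and 34.0 fragments, with an interval of 3.58 to 57.8 for its fold of 11.4, and the repressor Bhlhe41 had 0.95 and 3.65 FPKM. Treatment and time of day cannot be told apart for these genes, since no source used here gives the hour of harvest. Fkbp5, Tsc22d3, Hsph1, Cirbp and Rbm3 are known to vary with the time of day in mouse tissues, and for them the same holds.

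**Figure D5:**
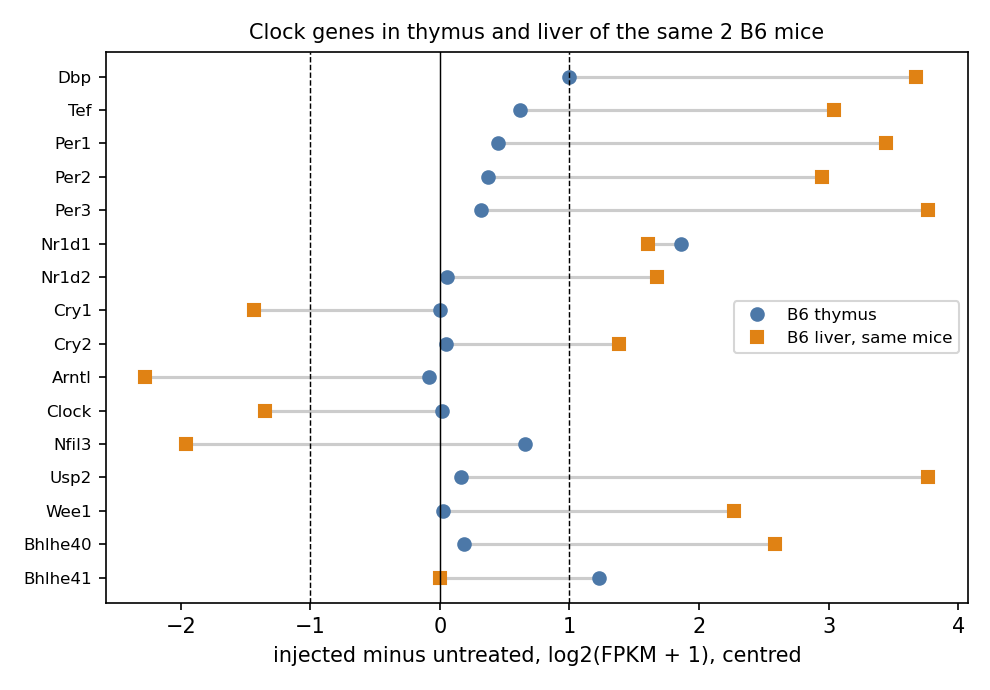
Difference between the injected and the untreated B6 mouse (log2(FPKM + 1), centred) for 16 clock genes in thymus (circles) and liver (squares) of the same 2 mice, with dashed lines at 2-fold. Dbp and Per1 are far to the right and Arntl to the left in liver, while in thymus all but Nr1d1 and Bhlhe41 lie within 2-fold; Bhlhe41 is listed at 0 in both livers.

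Other well-counted genes past 2-fold were taken up after their values were seen, apart from Rps16 and Rps27l. Rps16 was among the 15 highest, and Rps27l was named as a member of its list. Oaz1, the antizyme that restrains polyamine synthesis, had 42.6 and 102 FPKM, a fold of 2.35 (1.90 to 2.93). The chromatin corepressors Gatad2b (8.85 and 23.3 FPKM) and Hdac4 (2.79 and 7.92 FPKM) were each at least 2-fold higher. So were the protease Ddi2, with 3.98 and 11.4 FPKM, and the prostaglandin receptor gene Ptger1, with 5.09 and 12.8 FPKM. None of these 5 was past 2-fold in MSM thymus, where Oaz1 had 95.3 and 95 FPKM and Ddi2 had 12.1 and 11.3 FPKM. Rps16 and Rps27l belong to the list of ribosomal protein genes above. Rps16 had 99.1 and 295 FPKM, but ribosomal protein genes have many near-identical copies that share reads, and its value is uncertain. On the lower side, Rps27l, which is also a p53 target but was not in the list of p53 targets, had 128 and 55.5 FPKM, and Slc25a32, the mitochondrial folate carrier, had 7.61 and 3.03 FPKM. Lars2, the mitochondrial leucyl-tRNA synthetase, had 11966 and 4578 FPKM. A stretch of its transcript is known to resemble mitochondrial ribosomal RNA, so its value is uncertain as well.

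Several of the largest differences among named genes, which leave out small RNA, predicted and pseudogene symbols, rested on short or poorly counted transcripts. Over all 7040 genes the differences ran from -10.5 to 11.7. S100a9, a calcium-binding protein of neutrophils, had 2.03 and 23.9 FPKM, or about 2.2 and 25.2 fragments, and the interval of its fold ran from 3.13 to 109. In MSM thymus it was listed at 0 in the untreated and at 25.8 FPKM in the injected library. Its partner S100a8 did not follow in B6, with 22.9 and 17.2 FPKM. Fcer1g, the signalling chain of Fc receptors, had 3.82 and 16.3 FPKM, a fold of 4.35 (1.75 to 12.9), and Msmp, a secreted chemokine-like protein, had 1.07 and 11.0 FPKM on about 2.00 and 19.9 fragments. Rnf5, a membrane-bound ubiquitin ligase, had 4.20 and 13.9 FPKM, a fold of 3.21 (1.77 to 6.17), and was past 2-fold also in MSM thymus (3.15 and 14.3 FPKM) and B6 liver (13.5 and 36.5 FPKM). The H2-Q genes, class I genes of near-identical sequence, lay on opposite sides, with H2-Q8 at 5.03 and 15.7, H2-Q9 at 2.73 and 8.80 and H2-Q7 at 11.7 and 2.80 FPKM. Their sum was 19.4 and 27.3 FPKM.

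At the low end of named genes above 0 in both libraries, the first was Ndufs5, a subunit of respiratory complex I. It had 36.9 FPKM in the untreated and 0.01 FPKM in the injected thymus. It was at 0.00 FPKM in both MSM thymi and at 42.6 and 45.4 FPKM in the B6 livers, and the source of the near-zero values was not tested. Coq7, an enzyme of coenzyme Q synthesis, had 12.1 and 2.66 FPKM, a fold of 0.20 (0.07 to 0.49), and S100a6, a calcium-binding protein, had 23.0 and 5.74 FPKM, a fold of 0.26 (0.10 to 0.58). Both were past 2-fold lower in MSM thymus too, with 13.2 and 3.36 FPKM for Coq7 and 30.8 and 7.45 FPKM for S100a6. Snhg9, a host transcript of a small nucleolar RNA, was listed at 0 in the untreated thymus and at 41.1 FPKM in the injected one.

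Markers of cells other than thymocytes and epithelium were at low levels in both thymi, and some differed. Red cell globin genes, which mark blood in the tissue, summed to 134 FPKM in the untreated and 40.7 FPKM in the injected thymus. Hba-a1, an alpha globin gene, had 46.0 and 9.77 FPKM. In the MSM thymi the globin sum was 453 and 42.7 FPKM, and the untreated thymus had more in both strains. Hepatocyte genes summed to 50.9 FPKM in the untreated and 98.7 FPKM in the injected B6 thymus, with Cyp2e1, a liver cytochrome P450, at 5.67 and 17.4 FPKM. In the MSM thymi the hepatocyte sum was 3446 and 242 FPKM, in the other direction. Neutrophil genes summed to 27.0 and 47.8 FPKM, most of it S100a8 and S100a9, with 3 of the 8 markers at 0 in the untreated and 2 in the injected library. Macrophage and dendritic cell genes summed to 264 and 231 FPKM, and of 8 compared 1 was 2-fold lower (1.21% of all genes were). It was Cd68, a lysosomal protein of macrophages, with 14.4 and 5.52 FPKM on about 45.3 and 16.9 fragments. B cell genes summed to 23.3 and 18.1 FPKM and endothelial genes to 29.2 and 20.3 FPKM. Cortical epithelial genes, 8 compared with a median of 0.11, were level, whereas of the 5 medullary ones 4 were below 0, the chemokine Ccl21a furthest, with 86.6 and 49.0 FPKM. Medullary genes below 5 FPKM lay on both sides, and Aire, the regulator of tissue-restricted antigens, had 2.35 and 4.64 FPKM. How far such shares of other tissue enter the differences above was not tested.

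Set beside the MSM thymus pair, 18 of the 7040 genes (0.256%) were past 2-fold on the higher side in both strains, 17 (0.241%) on the lower side in both, and 18 (0.256%) in opposite directions. With at least 100 estimated fragments these numbers were 3 (0.0893% of the 3358), 2 (0.0596%) and 1 (0.0298%). The 3 were Fkbp5, Tsc22d3 and Hsph1, the 2 were Scd1 and Lars2, and the 1 in opposite directions was Hist1h2ae. Beside the livers of the same mice, 18 genes (0.256%) were higher in both tissues, 14 (0.199%) lower in both and 8 (0.114%) in opposite directions. Genes well counted in thymus gave 5 (0.149%), 1 (0.0298%) and 0 there, the 5 being Fkbp5, Tsc22d3, Hsph1, Rps16 and Ptger1 and the 1 being Hist1h2ae, which was near the detection limit in liver, at 1.21 FPKM and listed at 0. The 2 strains share no library, but both pairs rest on the same 2 deposited tables.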

How the data were processed

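Polyadenylated RNA of 8 libraries was prepared with a TruSeq kit per the labels' protocols. Per the submitters' processing notes, TopHat, Cuffdiff 2.2.1 and the mm10 build were used; the sources used here do not give the gene annotation. The authors deposited FPKM, with interval bounds, in 1 table for untreated and 1 for injected mice, normalized separately. Every value had the status OK. All Cuffdiff lower bounds in both B6 thymus libraries were 0, so the deposited intervals separated 0 genes.

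Both tables were joined on gene (23284), centred by the median ratio over genes whose mean reached 1 FPKM, and compared as log2(FPKM + 1), which understates changes of low genes. FPKM was turned into estimated fragments with 2015 genes that have a single transcript of at least 1500 nucleotides in GENCODE M21 (mm10). Per library, 432 and 439 low values were used, and 74.1% and 74.3% of them came out whole within 0.1 (20% by chance). Effective length was taken as length minus 200. Lengths and GC content came from GENCODE for 6445 of the compared genes (91.5%), and coordinates count from 1. Intervals are exact binomial (Clopper-Pearson).

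Members and the 45 gene lists were chosen with earlier results of these data known. Named genes were the 15 largest differences each way among genes above 0 in both libraries, without small RNA, predicted and pseudogene symbols, up to 5 each way among genes listed at 0 in 1 library, all of the Fas receptor complex, and up to 5 of each other list by size; well-counted genes past 2-fold and further list members were added after their values were seen. The labels number no replicates, and no test was run. Scripts were tested on simulated data. Python 3.11.15, numpy 2.4.6, pandas 2.3.3 and scipy 1.17.1 were used. In total 12 alternatives were set up, 2 of them after seeing the data. A few genes are not reported here.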

Additional observations from a re-analysis of the deposited data

Results flagged for a closer look

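7 named genes past 2-fold in B6 thymus were past 2-fold in the opposite direction in another pair of libraries; each pair is 1 library against 1, and none of these differences was tested. In MSM thymus, 3 H2A histone genes were higher in the injected library although lower in B6: Hist1h2ae by 1.23 (8.47 and 22.4 FPKM), Hist1h2ah by 1.38 (1.92 and 6.95 FPKM) and Hist2h2ab by 1.37 (1.86 and 6.73 FPKM). Their B6 differences were -1.63, -1.84 and -1.23. Usp18 had a difference of -1.23 in MSM thymus (7.67 and 2.86 FPKM), and Cyp2e1 one of -2.87 (109 and 14.8 FPKM), the latter in a pair whose untreated thymus held 1773 FPKM of Alb. In B6 liver, Dynlt1c, a dynein light chain gene with near-identical copies, had a difference of -1.16 (1.24 FPKM and listed at 0), and H2-Q9 one of -1.54 (13.0 and 3.96 FPKM).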

How the results depend on the processing

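Each comparison rests on 1 library per group, so no library could be left out. No paired analysis was possible because each group has 1 library and the labels give no replicate numbers. The planned comparison of deposited intervals gave no value, since all their lower bounds were 0. The counts of genes at least 2-fold higher and lower, 80 and 85, became 43 and 38 with 5 added in place of 1, 240 and 204 at a mean of at least 1 FPKM, 330 and 284 with no filter, 30 and 29 at a mean of at least 20 FPKM, and 10 and 5 with at least 100 estimated fragments. Leaving out small RNA and predicted symbols gave 52 higher and 63 lower. Under no centring (87 and 80), a common sum (94 and 73), centring on ribosomal protein genes (110 and 63), 0.1 added (100 and 112) and subtraction of GC and length medians (71 and 70), both counts stayed within 1.5 times. Genes past 2-fold in the same direction in MSM thymus numbered 35, and 22 with 5 added, 72 at 1 FPKM, 18 at 20 FPKM and 5 with at least 100 fragments. For B6 liver the count was 32, then 11, 70, 10 and 6 under the same settings. The fragment filter and the GC and length subtraction were chosen after seeing the data, as were all alternatives for MSM thymus and B6 liver. Among recomputed medians of lists, 3 moved by 1.5-fold or more and 249 did not; among values of named genes, 50 moved, all with 0.1 or 5 added, and 1094 did not, and none reversed. Depth limits what low genes can show, since 5 FPKM on 2 kb is about 30.1 to 30.8 fragments.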
